A study of Rattus norvegicus with 2 samples.

Results

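Genes for the proteins of the cytosolic ribosome were chosen by symbol: Rpl or Rps followed by a number, with an optional letter and digit, and also Rplp0, Rplp1, Rplp2 and Rpsa. The rule found 90 symbols among 22312 genes, 53 of the large and 37 of the small subunit. Of these, 74 are the canonical genes, 7 are paralogues with a partner gene (Rpl3l, Rpl7l1, Rpl10l, Rpl22l1, Rpl39l, Rps27l and Rps4y2), and 9 are further copies whose symbol ends in l or l with a digit. Rpl21, Rpl28 and Rps12 matched no symbol and were not analysed here. Fau, whose product is a ribosomal protein fused to a ubiquitin-like protein, falls outside the rule.

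The study measured the mRNA of skin from male Sprague-Dawley rats of 4 weeks in a model of fibrosis after radiation. The irradiated library came from an area given 45 Gy at once with electrons, and the other from a skin area outside the beam. Paired values below give the irradiated library first. With 1 library per group there is no replicate error and no test of the condition, so every comparison describes these 2 libraries. The labels give neither the time of collection nor the number of animals, and the title of the irradiated library, NC, is not expanded. Groups follow the source labels, and every direction would be inverted if those were exchanged.

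The estimated reads on protein-coding genes were 11197446 after 45 Gy and 12649576 without it. Skin markers were present in both, but muscle was too: the 12 skeletal muscle markers took 27.7% of the irradiated library's reads and 30.5% of the other's. In bulk tissue, a smaller number of cells of a type and less RNA per cell cannot be told apart.

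A ribosome carries nearly every ribosomal protein once, on a scaffold of ribosomal RNA: the small subunit reads the mRNA and the large subunit forms the peptide bond. In mammals most of these mRNAs begin with a C and a run of pyrimidines, the 5′ terminal oligopyrimidine or TOP motif, through which mTOR signalling and the RNA-binding protein LARP1 set their translation. Nearly every such gene also has many processed copies in the genome, which makes it hard to assign reads. Striated muscle is known for one exchange within the particle, in which Rpl3l takes the place of its near relative Rpl3.

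RefSeq (build GRCr8) gave a start for 67 of the 90 symbols, 59 of them canonical. A C at the first transcribed base followed by at least 4 pyrimidines was found in 23 of the 59 canonical genes, or 39.0%, against 2.52% of 21851 protein-coding genes and 2 of 58 mitochondrial ribosomal protein genes. None of the 8 paralogues and copies with an entry had it. Allowing the motif to begin up to 5 bases either side of the annotated start gave 39 of 59 canonical genes, against 16.5% of all genes. The first transcribed base was C in 55.9% of the canonical genes and in 24.4% of all genes. The letters are a description of annotated starts on the transcribed strand alone, and a start that lacks them says nothing about the mRNA's control.

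The sequences below run from 20 bases before the start to 20 bases from it onwards, to show canonical starts beside those of paralogues. Capitals mark the first transcribed base and, where the motif is present, the run of pyrimidines from that base onwards. Pyrimidines directly before the start stay in lower case. The first 4 are canonical genes of both subunits, and the others are pairs of a canonical gene and its paralogue.
Rpl35 (chr3:43165902-43165941, minus strand): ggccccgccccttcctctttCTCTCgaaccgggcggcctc
Rplp1 (chr8:71290853-71290892, minus strand): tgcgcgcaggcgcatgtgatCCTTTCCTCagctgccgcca
Rps15 (chr7:10068096-10068135, minus strand): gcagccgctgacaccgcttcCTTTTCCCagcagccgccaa
Rps26 (chr7:1643385-1643424, minus strand): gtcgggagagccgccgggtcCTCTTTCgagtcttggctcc
Rps27 (chr2:177964587-177964626, minus strand): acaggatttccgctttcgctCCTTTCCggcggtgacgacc
Rps27l (chr8:76443638-76443677, plus strand): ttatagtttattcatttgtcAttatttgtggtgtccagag
Rpl22 (chr5:168117941-168117980, plus strand): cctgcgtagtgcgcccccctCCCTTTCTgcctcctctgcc
Rpl22l1 (chr2:113683176-113683215, plus strand): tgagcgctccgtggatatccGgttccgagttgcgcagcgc
Rpl3 (chr7:113507971-113508010, minus strand): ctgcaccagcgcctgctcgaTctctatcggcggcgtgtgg
Rpl3l (chr10:14258426-14258465, plus strand): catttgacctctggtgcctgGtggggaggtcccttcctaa
Counted from the first transcribed base, the runs of Rplp1 and Rps15 span 9 and 8 pyrimidines. Rpl3 begins with T, 1 base upstream of a C, followed by a short run, and Rpl3l begins with G.

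**Figure D1:**
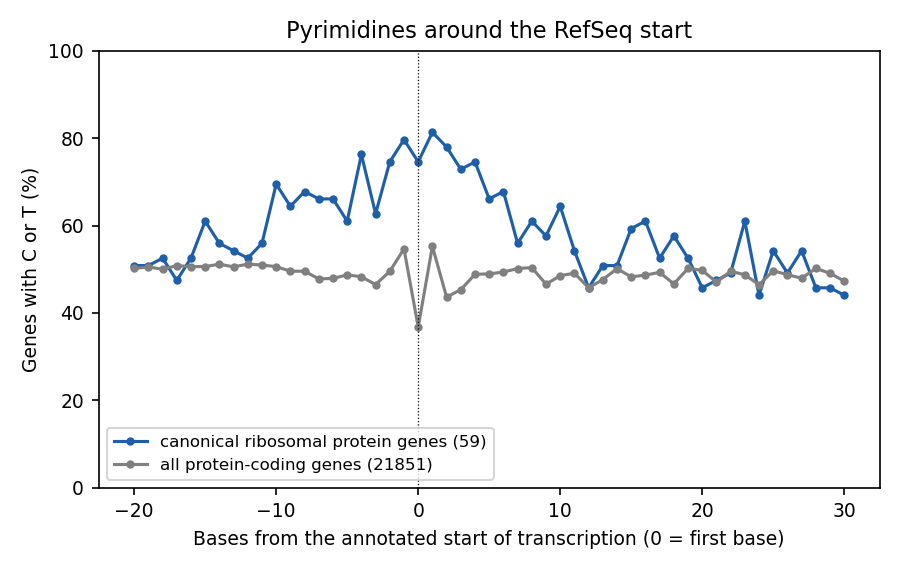
Share of genes (percent) with C or T at each base around the RefSeq start of transcription (0 is the first transcribed base), for 59 canonical ribosomal protein genes and 21851 protein-coding genes. At the first base 74.6% of the canonical genes and 36.8% of all genes have a pyrimidine, and the canonical genes lie above the others over the 10 bases on either side.

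Ribosomal protein mRNAs were abundant in both libraries and modestly higher in the irradiated one. Their summed level was 117216 FPKM (fragments scaled by transcript length and by library size) against 86679.8 FPKM, 1.35 times as high after 45 Gy. These sums run over the 86 measured members, that is, those whose mean over both libraries reached 1 FPKM. All members took 4.90% of reads (95% exact Clopper-Pearson interval 4.89 to 4.91%) against 3.65% (3.63 to 3.66%), and outside the muscle markers 6.78% against 5.24%. These intervals cover counting error only. Of the 100 genes with the highest FPKM, 39 were members in the irradiated library and 30 in the other.

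The shift was shared by nearly all members and small in each. On the scale log2((irradiated FPKM + 1)/(non-irradiated FPKM + 1)), the median over the 86 measured members was 0.45, against 0.21 over all 9743 measured genes, which leaves 0.24 relative to the median gene. Of the members, 80 had a ratio above 0 and 6 below, or 93.0% above 0 against 68.0% of all measured genes. The quartiles of the members were 0.29 and 0.56, while those of all genes were -0.09 and 0.56. At least 2-fold higher were 3 members (Rpl3, Rpl35a and Rpl7l1), or 3.49% against a background of 9.70% of all measured genes. At least 2-fold lower was 1 member, Rpl7a, or 1.16% against 1.53%. The remaining 82 lay within 2-fold, from -0.59 to 0.89, so what the members show is a common small offset. Its size depends on scaling, since the median gene is itself at 0.21. With the libraries scaled by a trimmed mean of log ratios the members' median was 0.19, with 68 of 86 above 0. On that scale the median gene was at -0.006.

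**Figure D2:**
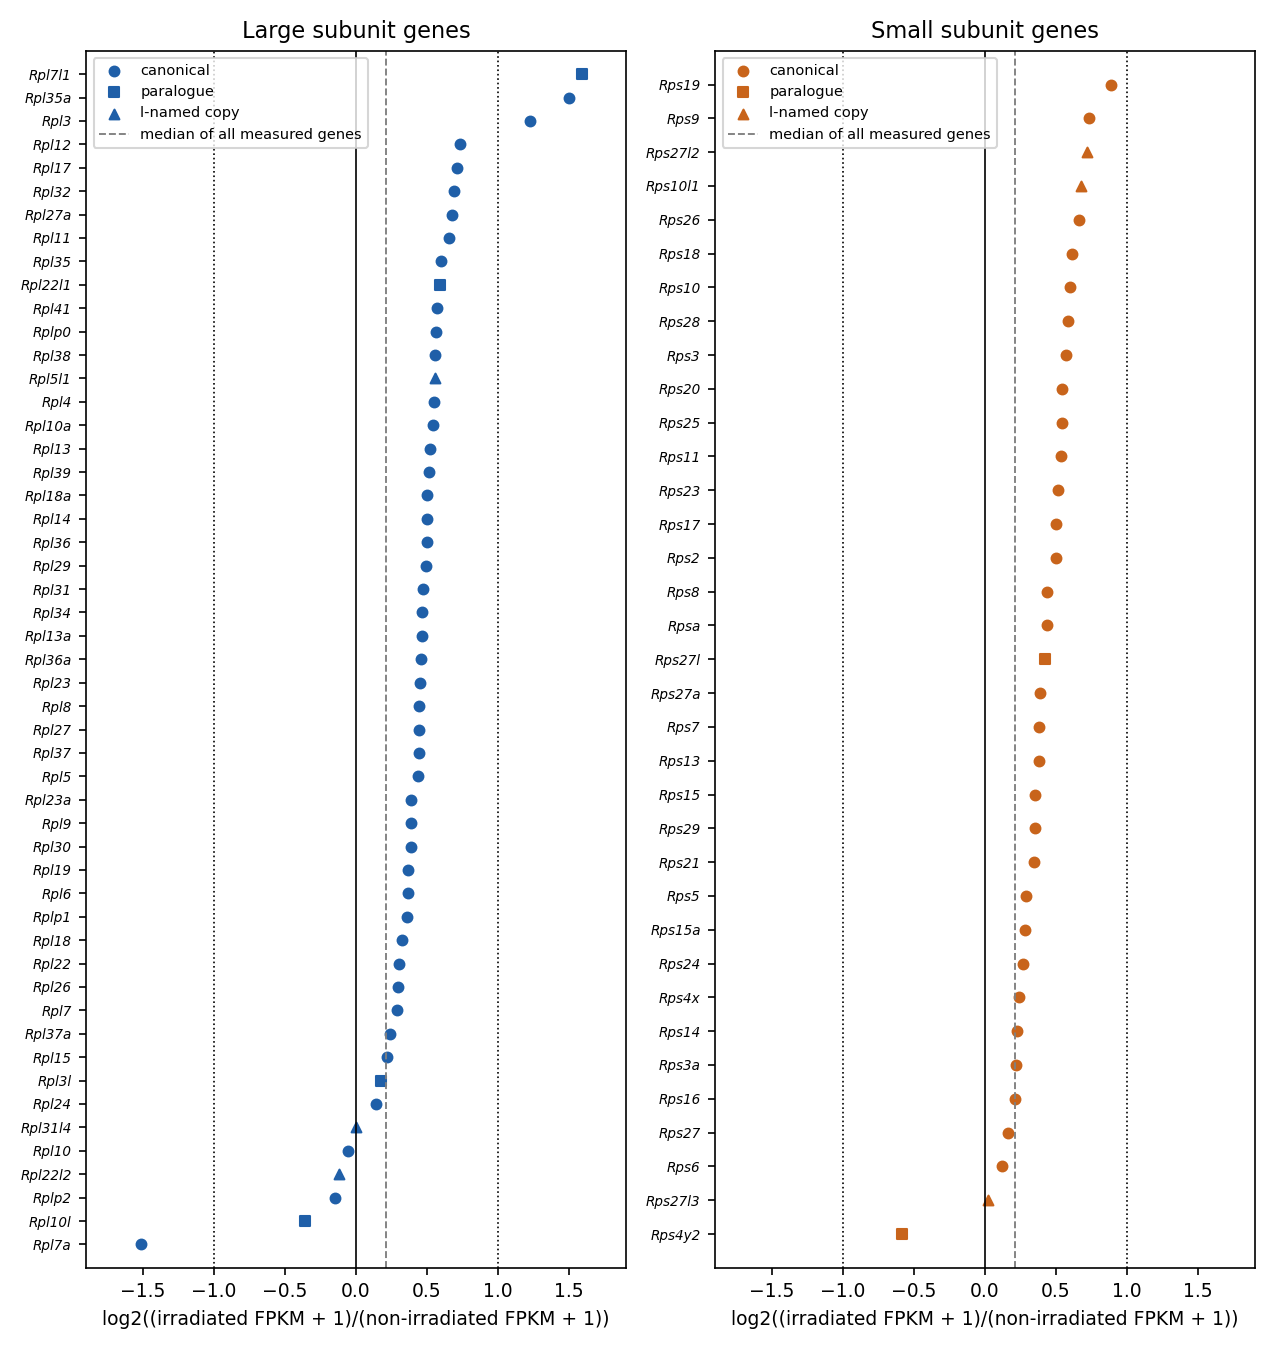
Log2 ratio of each of the 86 measured members, large subunit left and small subunit right, sorted within each; circles are canonical genes, squares paralogues and triangles other copies. The solid line is 0, dotted lines mark 2-fold and the dashed line the median of all measured genes (0.21); 74 members lie above the dashed line and 4 lie beyond 2-fold.

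Other marker lists that differed between the libraries are given beside this offset. Basal keratinocyte markers had a median log2 ratio of 2.77 and a summed level of 1171 against 67.4 FPKM, with 6 of 7 measured genes at least 2-fold higher. Krt14, a keratin of the basal layer, stood at 618 against 12.0 FPKM. Differentiating keratinocyte markers had a median of 2.84, at 2102 against 153 FPKM, with all 8 at least 2-fold higher. Sebaceous gland markers had a median of 2.69, with all 7 at least 2-fold higher, and cell division genes had 1.15, with 11 of 15 at least 2-fold higher. No marker of these lists was at 0 in either library except Soat1, which was listed at 0 in the non-irradiated library. Some genes of these lists passed the filter of a mean of 1 FPKM only through their irradiated level. In the non-irradiated library Mcm5, Mki67, Mcm6 and Mcm3 stood at 0.40, 0.65, 0.74 and 0.84 FPKM. There Dsc3, Col17a1, Dsg1 and Krt10 stood at 0.16, 0.60, 0.62 and 0.92 FPKM. The counts past 2-fold in these lists therefore depend partly on that filter. Of all measured genes, under the same filter, 9.70% were called higher. Fibroblast markers had a median of -0.54, with all 7 within 2-fold, at 815 against 1188 FPKM. Endothelial markers had a median of -0.46 over 4 measured genes, of which Emcn was at least 2-fold lower (log2 -1.14), at 15.1 against 25.6 FPKM. Skeletal muscle markers had a median of -0.12, at 297203 against 317721 FPKM, with 3 of 12 at least 2-fold higher. The summed levels run over every gene of a list, also those below 1 FPKM. The part of these cell types in the ribosomal protein offset was not tested.

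The medians of the subunits lay close together. The 51 measured large subunit genes had a median log2 ratio of 0.46 and the 35 small subunit genes 0.42, a difference of 0.039, while the interquartile ranges were 0.24 and 0.28. Among canonical genes the medians were 0.46 over 44 large and 0.41 over 30 small subunit genes. The large subunit held 56.6% of the members' summed FPKM after 45 Gy and 56.0% without it. The rest of each subunit clustered near its median, as the plot of log2 ratios shows gene by gene. Summed levels of the measured genes were 66351 against 48528 FPKM for the large and 50866 against 38152 FPKM for the small subunit.

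Among genes of the large subunit core, Rpl4, which lines the exit tunnel of the nascent chain, stood at 957 against 654 FPKM, a log2 ratio of 0.55. Rpl5 and Rpl11 join the 5S ribosomal RNA, and outside the ribosome both can bind the p53 regulator Mdm2. Rpl5 stood at 935 against 692 FPKM (log2 0.44), and Rpl11 at 2035 against 1291 FPKM (log2 0.66). Both lay above the median gene and below 2-fold. After Rpl3, the highest ratios of well-expressed large subunit genes were those of Rpl12 (763 against 459 FPKM, log2 0.73) and Rpl17 (1045 against 637 FPKM, log2 0.71). Counting intervals for these 2, on scaled counts, were 0.64 to 0.78 and 0.63 to 0.75. At the other end, Rpl24 stood at 2732 against 2476 FPKM (log2 0.14) and Rpl10 at 1033 against 1072 FPKM (log2 -0.05). Rpl10 was the only one of the 67 canonical genes averaging 200 FPKM or more whose ratio was below 0, and its row lies on chromosome 1 although the same row names X as the gene's chromosome.

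The stalk of the large subunit, which recruits the elongation factors, is built from Rplp0, Rplp1 and Rplp2. Rplp0 stood at 1592 against 1077 FPKM (log2 0.56) and Rplp1 at 2206 against 1723 FPKM (log2 0.36). Rplp2 was listed at 14.3 against 15.9 FPKM (log2 -0.14), far below its partners in the same structure.

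In the small subunit, Rps19, a gene mutated in Diamond-Blackfan anaemia, had the highest ratio at 313 against 168 FPKM (log2 0.89, counting interval 0.73 to 0.99). Rps26, which sits at the mRNA exit, stood at 2356 against 1491 FPKM (log2 0.66) and Rps18 at 1562 against 1022 FPKM (log2 0.61). Rpsa, also known as the laminin receptor precursor, stood at 1453 against 1075 FPKM (log2 0.44). Rps27a, made as a fusion with ubiquitin, stood at 1836 against 1406 FPKM (log2 0.39) as the sum of 2 rows. The row on its named chromosome, 14, alone held 1323 against 956 FPKM (log2 0.47). The lowest ratios of well-expressed genes were those of Rps27 (1989 against 1781 FPKM, log2 0.16) and Rps16 (1762 against 1523 FPKM, log2 0.21). The 27 canonical small subunit genes averaging 200 FPKM or more all had ratios above 0, against 68.0% of all measured genes.

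Levels differed far more between members than between libraries. Among the 67 canonical genes averaging 200 FPKM or more, a limit chosen after the values were seen, the highest level was 22.9 times the lowest after 45 Gy and 34.0 times without it. By FPKM, Rps29 led in both with 7169 and 5628 FPKM, followed by Rpl35 with 4998 and 3301 FPKM. FPKM is scaled by transcript length, and reads gave another order. By reads Rplp0 led in both libraries with 18683 and 14126, against 11743 and 10936 for Rps29. Rpl41, which encodes a very small protein, stood at 4695 and 3160 FPKM. By mean level, Rpl37 came next in the large subunit with 4266 and 3138 FPKM. In the small subunit, Rps28 was next after Rps29 with 3678 and 2449 FPKM, and then Rps15 with 2897 and 2274 FPKM. The lowest of the 67 were Rps19 and Rpl3, whose levels in the non-irradiated library were 168 and 166 FPKM. Their log2 ratios had an SD of 0.19 across genes. The order of levels was nearly the same in the 2 libraries (Spearman's rho across genes 0.98). This correlation is across 67 genes of 2 libraries and carries no test.

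**Figure D3:**
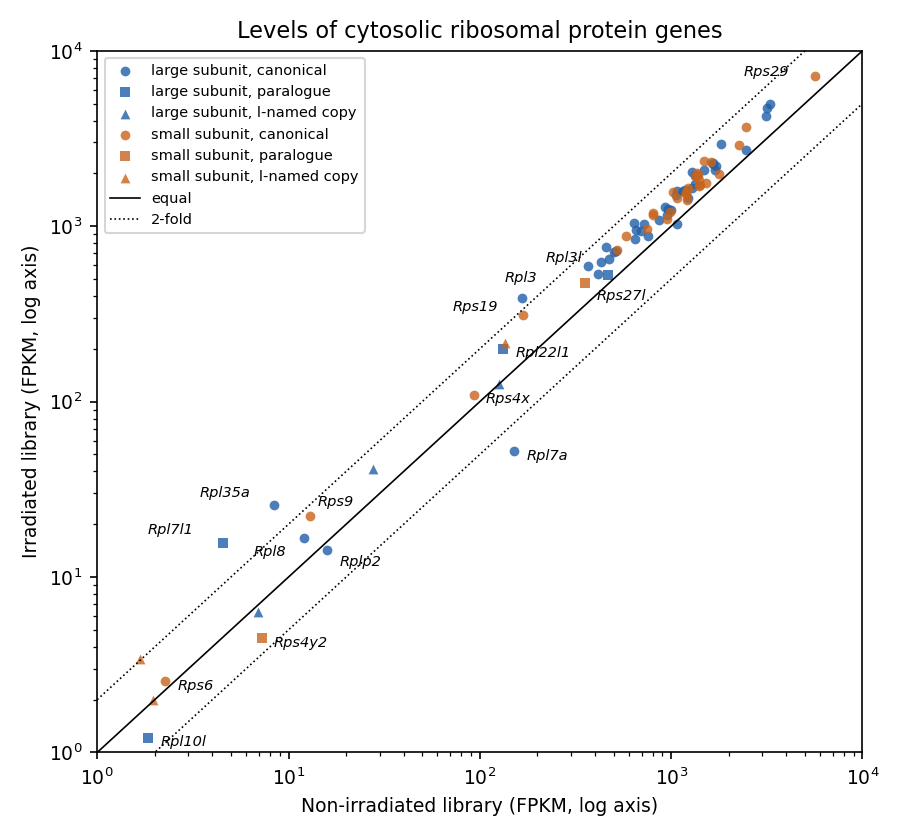
FPKM of each measured member in the irradiated against the non-irradiated library, both on log axes, by subunit (colour) and class (symbol). The solid line marks equal levels and the dotted lines 2-fold; most canonical genes form a band just above the solid line up to 7169 FPKM, and a few, such as Rps6 and Rplp2, lie far below that band in both libraries.

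Rpl3 was the only one of the 67 canonical genes averaging 200 FPKM or more that lay past 2-fold. In the non-irradiated library it was the lowest of these genes, and it met that limit only through its irradiated level. It stood at 388 against 166 FPKM, which is 2.35 times as high (log2 1.22, counting interval 1.15 to 1.29 on 5366 against 2555 reads). Its muscle paralogue Rpl3l stood at 530 against 468 FPKM (log2 0.18, counting interval 0.12 to 0.21 on 7630 against 7530 reads). Rpl3l was the more abundant of the pair in both libraries, at 1.36 times the level of Rpl3 after 45 Gy and 2.83 times without it. Rpl3l made up 57.7% of the summed FPKM of the pair after 45 Gy and 73.9% without it. By reads its share was 58.7% (95% exact Clopper-Pearson interval 57.9 to 59.6%) and 74.7% (73.8 to 75.5%). These intervals cover counting error alone and leave out the spread between animals and between skin samples. The difference between the log2 ratios of Rpl3l and Rpl3 was -1.05. Rpl3 fell just short of 2-fold, at 0.97, under the trimmed-mean scaling. Rpl3l turned to -0.08 there and to -0.03 when the median gene was set to 0, so no direction can be given for it.

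Rpl3 lies on the minus strand of chromosome 7, 121287084 to 121292461, and Rpl3l on the plus strand of chromosome 10, 13910496 to 13921040, in the deposited table's coordinates, whose build is not given in the sources used here. Another muscle exchange in translation concerns elongation factor 1A, where Eef1a2 is the form of muscle and neurons. Eef1a2 stood at 358 against 531 FPKM (log2 -0.56) and the widely expressed Eef1a1 at 609 against 404 FPKM (log2 0.59). In this pair the paralogue of muscle led in the non-irradiated library and the widely expressed gene in the irradiated one. Beside these values, 4 of the 12 muscle markers had log2 ratios above 0 and 8 below. Above 0 were Myh2 and Myh1, heavy chains of fast fibres, at 1.37 and 1.29, the myoglobin gene Mb at 1.12 and Mylpf at 0.19. Farthest below 0 were the muscle creatine kinase gene Ckm at -0.84, the calcium pump gene Atp2a1 at -0.74 and Myh4, also a heavy chain of fast fibres, at -0.66. Pvalb, Tnnt3, Tnnc2, Acta1 and Tnni2 lay between -0.35 and -0.02. Whether the amount or the kind of muscle, or the epidermal markers above, accounts for the values of Rpl3 was not tested.

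Rps27l, a target of p53 in human cells, stood at 472 against 353 FPKM (log2 0.42, counting interval 0.26 to 0.49), beside Rps27 at log2 0.16. It made up 19.2% of the FPKM of the pair after 45 Gy and 16.5% without it. Rpl22l1 stood at 200 against 132 FPKM (log2 0.59), and its share beside Rpl22 was 13.9% against 11.7%. Rpl7l1, whose yeast relative Rlp7 takes part in assembly of the large subunit, had the highest ratio of all members at 15.7 against 4.52 FPKM (log2 1.59, counting interval 1.23 to 2.35 on 114 against 37 reads), while Rpl7 stood at 1157 against 947 FPKM. Rpl10l and Rpl39l, forms of male germ cells in mouse, were near the limit of detection, with 7 against 12 and 2 against 4 reads. Rps4y2 stood at 4.47 against 7.22 FPKM on 42 against 76 reads (log2 -0.59).

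**Figure D4:**
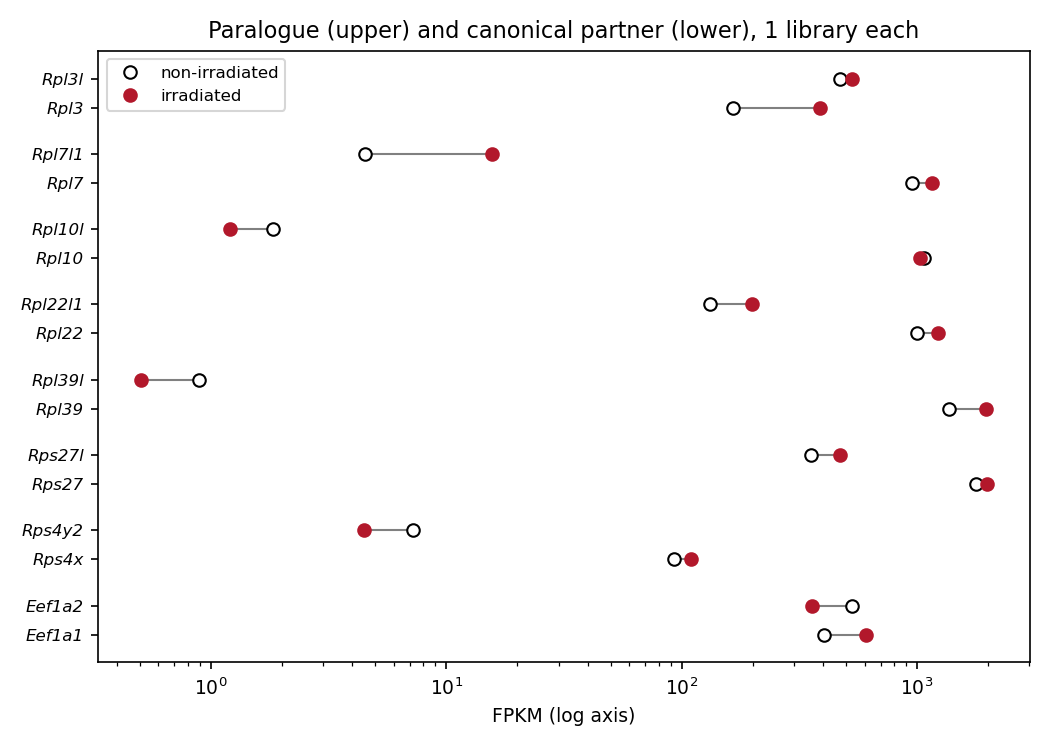
FPKM (log axis) of each paralogue (upper of each pair) and its canonical partner (lower) in the non-irradiated (open) and irradiated (filled) library; each point is 1 library, with no error. Rpl3l and Rpl3 approach each other in the irradiated library, Eef1a2 and Eef1a1 change order, and the other paralogues stay well below their partners.

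Of the 9 further copies, Rpl31l3 and Rps19l1 were listed at 0 in both libraries and Rps17l had 1 read in all. Rps10l1 stood at 216 against 135 FPKM (log2 0.67) and Rpl31l4 at 125 in both. Rpl5l1 had 41.3 against 27.8 FPKM, and Rpl22l2, Rps27l2 and Rps27l3 lay below 7 FPKM. How the authors counted reads that match several places, such as a gene and its copy, is not given in the sources used here.

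The 90 symbols came from 113 rows, with 11 symbols spread over 34 rows, which were summed. Of 112 member rows that name a chromosome for their gene, 22 lie on another one, and 5 of these were at 0 in both libraries; for Rpl10 and Rps4x no row lay on the named chromosome. In the symbols with several rows, the highest row held 92.4% and 92.5% of the summed FPKM. In 7 canonical genes the mean was under 200 FPKM, although each encodes a constituent of the standard ribosome. Rps6, the target of S6 kinase, was listed at 2.54 against 2.26 FPKM on 19 reads in each library. Rplp2, Rpl8, Rps9 and Rpl35a lay between 8.41 and 25.6 FPKM, and Rps4x at 109 against 92.7 FPKM. Just inside that limit lay Rps19 and Rpl3, both under 200 FPKM in the non-irradiated library, so they met it only through the irradiated one.

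Of the 4 members past 2-fold, 2 belong to these 7. Rpl35a stood at 25.6 against 8.41 FPKM over 5 rows on 78 against 28 reads, 3.05 times as high. Its rows on the named chromosome 12 held 0 reads. The reads lay in rows on chromosome 5 (68 against 22) and chromosome 6 (10 against 6). Rpl7a stood at 52.1 against 151 FPKM (log2 -1.51), the sum of 2 rows of equal locus length on chromosome 3 with opposite directions, 40.2 against 144 and 12.0 against 6.71 FPKM. The values of both are uncertain. Among the 57 canonical genes averaging 200 FPKM or more whose single row lay on the named chromosome, Rpl3 was the only one past 2-fold. All 57 ratios lay above 0 and their median was 0.47. Of all measured genes, 11.2% were past 2-fold in either direction and 68.0% lay above 0, with a median of 0.21.

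A few rows outside the rule bear on these values. Rpl12-ps1, named as a pseudogene and chosen here after its value was seen, stood at 101 against 1.94 FPKM; added to Rpl12 it moved that gene's log2 ratio from 0.73 to 0.91. Rps2-ps6 went the other way, at 140 against 195 FPKM. Fau stood at 2152 against 1719 FPKM (log2 0.32), within the range of the members.

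The members were then set beside other genes of ribosome production and translation. Genes of nucleolar assembly and rRNA processing had a median log2 ratio of 0.39 over 49 measured, 46 of them above 0 and none past 2-fold. Among all measured genes, 68.0% lay above 0 and 11.2% past 2-fold in either direction. Npm1, a chaperone of ribosome assembly, stood at 263 against 188 FPKM (log2 0.49) and Nat10, which acetylates ribosomal RNA, at 5.06 against 2.15 FPKM (log2 0.95). RNA polymerase I and III genes had a median of 0.32 over 28, with Taf1c, of the polymerase I initiation complex, the only one at least 2-fold higher (log2 1.11 on 116 against 38 reads).

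Translation factors lay closer to the median gene. The 34 initiation factors had a median of 0.17, with Pabpc1, which binds the poly(A) tail, at least 2-fold higher (151 against 66.7 FPKM, log2 1.17) and Eif1 at 567 against 695 FPKM (log2 -0.29). The 11 elongation and termination factors had a median of 0.26, all within 2-fold. A list of 20 other genes known for TOP mRNAs had a median of 0.25, with Pabpc1 and Hnrnpa1 at least 2-fold higher. Tpt1, the most abundant of that list, stood at 4199 against 5395 FPKM (log2 -0.36). Within the members, the 22 canonical genes averaging 200 FPKM or more with the motif at the annotated start had a median of 0.41, and the 31 without it 0.49. Genes of mTOR and translation control had a median of 0.16 over 22, with Myc, a transcription factor that drives ribosome production, the only one at least 2-fold higher (8.58 against 2.77 FPKM, log2 1.35).

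Large complexes outside the cytosolic ribosome had lower medians. The 72 measured mitochondrial ribosomal protein genes had a median of -0.02, with 33 above 0 and none past 2-fold, and their summed level over 73 genes was 4952 against 5036 FPKM. Mrpl54, among the most abundant, stood at 562 against 650 FPKM (log2 -0.21). The 31 proteasome subunits had a median of 0.10, with none past 2-fold. The medians of these lists could not be tested against that of the cytosolic ribosome with 1 library per group.

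**Figure D5:**
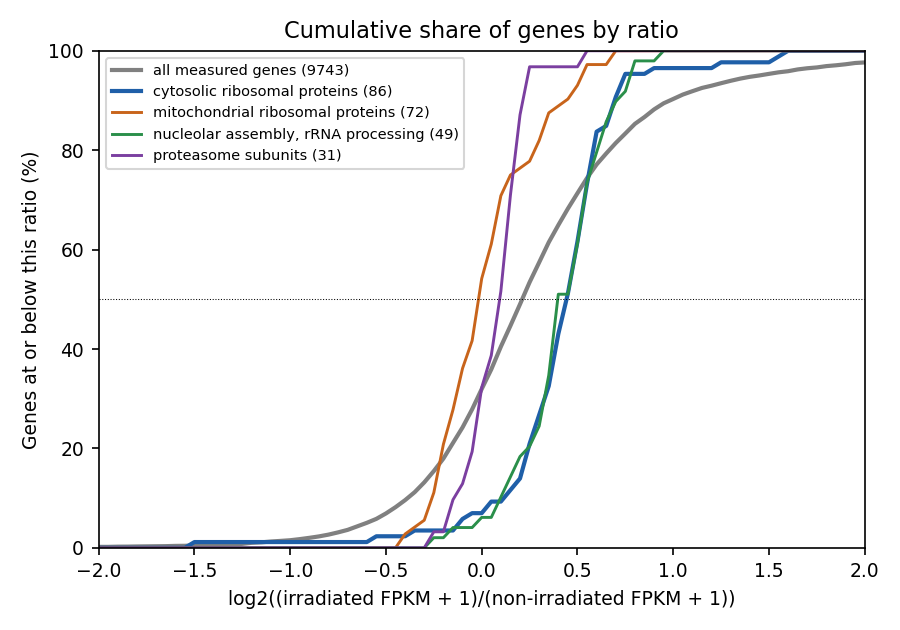
Cumulative share of genes (percent) by log2 ratio for 86 cytosolic and 72 mitochondrial ribosomal protein genes, 49 genes of nucleolar assembly and rRNA processing, 31 proteasome subunits and all 9743 measured genes. The cytosolic and nucleolar curves nearly coincide and cross 50% at 0.45 and 0.39, to the right of all genes (0.21), while the proteasome and mitochondrial curves cross at 0.10 and -0.02.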

How the data were processed

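Per the labels' protocols, total RNA was depleted of ribosomal RNA and made into stranded libraries. Tools listed in the submitters' processing notes were HISAT2 2.0.4, cutadapt 1.9.3, Cuffdiff and Cufflinks, with no roles; the genome build is not given in the sources used here. Per the file headers, the authors deposited FPKM values and counts for 22714 rows. Values in the deposited count columns are a scaled signal: 97.7% and 98.0% of values above 0 were whole multiples of 1.05 (irradiated) and 0.951 (non-irradiated), within 0.01 of a read plus 1e-05 per read. Division by these steps gave the estimated reads.

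Rows with the same symbol were summed, and genes averaging 1 FPKM or more (43.7%) were kept. Ratios carry a pseudocount of 1, and a difference was called at 2-fold. No count model was run. Intervals are 95% exact Clopper-Pearson intervals of estimated reads; they cover counting error and do not bound the FPKM ratio. Paralogues, the stalk, Rpl5, Rpl11, members past 2-fold and the extremes of ratio and level in each subunit were named, with list genes by highest mean or largest ratio; Eef1a1, Fau and a few further members and markers were added for context. Members and lists were chosen with earlier results of these data known. Only the 2-fold rule was tested on simulated data, with planted fold changes and counting error alone. Python 3.11.15, scipy 1.17.1 and pandas 2.3.3 were used. No per-sample columns were left unused. Alternatives covered pseudocount, filter, unit, scaling, rows and members.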

Additional observations from a re-analysis of the deposited data

How the results depend on the processing

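The members' median log2 ratio (0.45) stayed above 0 under every alternative run. It was 0.44 with a pseudocount of 5, 0.24 with the median gene set to 0, 0.19 under the trimmed-mean scaling, 0.37 when the libraries were scaled without the muscle markers and 0.32 without the 100 highest genes. Restricted to canonical genes with 1 row on the named chromosome and a mean of at least 200 FPKM, it was 0.47. That choice was made after seeing the data. In this set 1 member, Rpl3, was at least 2-fold higher and 0 were lower. Rpl3 met the limit of 200 FPKM only through the irradiated library, and the restriction left out Rpl7a, which was at least 2-fold lower. The large minus small subunit difference (0.039) was 0.072 with a pseudocount of 5, 0.065 with no filter, 0.057 on scaled counts, 0.024 with the highest row of each symbol and 0.052 with canonical members only. The remaining 45 of 58 recomputed values moved by less than a counting error or, for counts of members, by at most 1.5 times. Among them was every value of the difference between Rpl3l and Rpl3, whose counting error came from the reads of these genes. A common library factor cancels in this difference and in that between the subunits, so the rescalings could hardly move either. Rpl3 and Rpl3l also have a single row each and lie far above the filter, so this stability is no check on the difference. For the medians the counting error came from reads pooled over all members or over each subunit, so it is not the error of a median. No paired analysis was possible because each group has 1 library. Counting error is wide for members with under 20 reads in both libraries, such as Rps6, Rpl10l and Rpl39l; why Rps6 had so few was not tested.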
